A study of Mus musculus with 4 samples.

Results

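The Ms4a genes encode small proteins that cross the membrane 4 times, and the 8 members followed here were Ms4a1, Ms4a4a, Ms4a4b, Ms4a4c, Ms4a6b, Ms4a6c, Ms4a6d and Ms4a7. They were taken by symbol from the gene lists of 4 single-cell libraries of mouse spinal cord and were 8 of 32285 genes, and 8 of the 19 Ms4a genes listed there. Each library came from a pair of pooled spinal cords, and each group was 1 library, so no group had replicates. The P301S hom CD8 KO group was homozygous for P301S, a mutant form of human tau that models tauopathy, carried a CD8 knockout by its label and was 30 weeks old. The other groups were P301S hom CD8 WT mice of 33 weeks, P301S hom CD8 WT mice of 30 weeks and P301S neg CD8 WT mice of 30 weeks. The promoter that drives the transgene is not given in the sources used here. Levels are given as CPM, the UMIs (counted RNA molecules) of a gene per 1000000 UMIs of all cells of a class in 1 library. Intervals are exact 95% intervals that cover counting error only, not differences between mice, and no difference between libraries or classes was tested.

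Members of the family sit in immune cell membranes and take part in receptor signalling. Ms4a1 is CD20, the B cell antigen, and Ms4a4b is known in mouse T cells as a partner of the costimulatory receptor Tnfrsf18. Ms4a4a marks macrophages and associates with other receptors there, and in human the MS4A locus is linked to Alzheimer disease and to the level of soluble TREM2. Ms4a7 is known in mouse as a gene of the macrophages at the borders of the central nervous system, the meninges and perivascular spaces, and of microglia in disease. Microglia are the resident macrophages of the spinal cord.

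The 4 libraries held 5443, 5661, 5107 and 6433 barcodes in the order CD8 KO, CD8 WT at 33 weeks, CD8 WT at 30 weeks and P301S neg, of which 20186 of 22644 passed the filters. Summed UMIs were 36331214 to 43531426 per library, and pairs of libraries shared 3 to 12 barcodes. The libraries differed in sex. Among cells with sex-linked UMIs of 1 sex, the CD8 KO library held 8 female and 3080 male cells, the 33-week library 1687 and 1304, the 30-week CD8 WT library 3724 and 0, and the P301S neg library 2045 and 1565. The label CD8 KO was checked on Cd8a. In T cells the library labelled CD8 KO held 0 UMIs of Cd8a in 45 cells, a floor of 24.2 CPM, against 299, 329 and 301.3 CPM in CD8 WT at 33 weeks, CD8 WT at 30 weeks and P301S neg. The same library had Cd8a in endothelial cells, at 117 CPM with a UMI in 42.2% of 1288 cells, and the other 3 libraries had 0 there.

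All 8 genes lay on mouse chromosome 19, within 355175 bases that held 11 of the 19 Ms4a genes (GRCm38, GENCODE M21 annotation). From low to high coordinate the order was Ms4a1 (ENSMUSG00000024673, minus strand, chr19:11249675-11266241), Ms4a7 (ENSMUSG00000024672, minus strand, chr19:11321039-11336146), Ms4a4a (ENSMUSG00000101389, plus, chr19:11375523-11392790), Ms4a4c (ENSMUSG00000024675, plus, chr19:11404770-11427246), Ms4a4b (ENSMUSG00000056290, plus, chr19:11443553-11467055), Ms4a6c (ENSMUSG00000079419, plus, chr19:11469366-11482192), Ms4a6b (ENSMUSG00000024677, plus, chr19:11516512-11531256) and Ms4a6d (ENSMUSG00000024679, minus, chr19:11586604-11604849). Ms4a4b, which was highest in T and NK cells, lay 2310 bases from Ms4a6c, which was highest in monocytes. Ms4a4b and Ms4a4c were the closest pair in sequence, with 91.7% identity over coding sequences of 678 bases each. The Ms4a6 genes followed, at 80.6% for Ms4a6b with Ms4a6d, 75.7% for Ms4a6b with Ms4a6c and 69.7% for Ms4a6c with Ms4a6d. Because 3′ reads are counted, near-identical 3′ ends could split or mix reads. Of the 541 windows of 60 bases in the last 600 bases of each transcript, Ms4a4c shared 33 with Ms4a4b and Ms4a6c shared 37 with Ms4a6b, and the other 6 members shared none.

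Promoter sequence is shown for Ms4a4b and Ms4a4c because their coding sequences are nearly alike while their cell classes differed, and for Ms4a7 because its level differed between microglia classes. The sequences are from RefSeq (GRCm38.p6), 5′ to 3′, and run from 250 to 11 bases before the annotated start; 6 of the 8 members had an entry, with 7 promoters. Ms4a1 and Ms4a6d are named only. Capitals mark the runs of 12 or more bases that Ms4a4b (chr19:11443308-11443547, plus strand) and Ms4a4c (chr19:11407411-11407650, plus strand) share in the same order, 80 of 240 bases in 5 runs, the longest of 20 bases. Ms4a7 (chr19:11336157-11336396, minus strand, the first of its 2 starts) has no capitals.
Ms4a4b: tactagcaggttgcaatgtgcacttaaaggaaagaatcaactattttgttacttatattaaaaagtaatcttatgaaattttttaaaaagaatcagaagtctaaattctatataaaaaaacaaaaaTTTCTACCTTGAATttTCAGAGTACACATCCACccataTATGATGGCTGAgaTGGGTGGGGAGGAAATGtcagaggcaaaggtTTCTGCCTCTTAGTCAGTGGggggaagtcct
Ms4a4c: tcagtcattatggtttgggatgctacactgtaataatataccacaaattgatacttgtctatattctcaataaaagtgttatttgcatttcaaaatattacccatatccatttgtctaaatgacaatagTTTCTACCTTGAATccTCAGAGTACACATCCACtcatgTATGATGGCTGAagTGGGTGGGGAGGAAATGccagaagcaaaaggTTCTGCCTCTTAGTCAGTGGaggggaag
Ms4a7: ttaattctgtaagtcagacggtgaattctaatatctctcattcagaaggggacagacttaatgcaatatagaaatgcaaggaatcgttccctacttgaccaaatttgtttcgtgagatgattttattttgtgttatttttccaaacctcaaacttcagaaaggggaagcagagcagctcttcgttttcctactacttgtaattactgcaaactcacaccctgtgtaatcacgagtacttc
Aligned end to end, the Ms4a4b and Ms4a4c promoters were identical at 183 of 261 columns, or 70.1%, and the other pairs of members at 45.7% to 52.4%. The last and longest of the shared runs ended close to the start, and the part farther upstream held none. Both promoters held the PU box GAGGAA, the core bound by the myeloid and B cell factor PU.1, at 64 bases before the start in Ms4a4b and 61 bases in Ms4a4c, within a shared run. That motif, on either strand, was in 22.3% of all 32851 promoters. The other motifs searched on both strands were the interferon element (GAAA and GAAA with 2 bases between, 2.87% of promoters), the RUNX motif TGTGGTT (4.24%), the AP-1 motif TGANTCA (6.58%) and the EBF motif (TCCC and GGGA with 2 bases between, 0.755%). Of these, only AP-1 had a match among the 7 member promoters, at the second start of Ms4a7, 81 bases before it.

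Cells were placed in 22 classes from fixed marker lists, and no member was among the markers. All Ms4a genes were also left out of the genes used to cluster. Differences between classes were not tested, so levels between classes are a description. Across the classes the family divided into genes of macrophages and monocytes (Ms4a7, Ms4a6c, Ms4a6d, Ms4a6b, Ms4a4a, Ms4a4c) and genes of lymphocytes (Ms4a4b, Ms4a1, and Ms4a6b again in T cells). Microglia, the most numerous immune cells, held 93.2% of 12443 Ms4a7 UMIs, 92.3% of 12226 Ms4a6d UMIs, 62.4% of 17630 Ms4a6c UMIs and 48.1% of 4025 Ms4a6b UMIs. Ms4a4c was divided between monocytes, with 35.3% of 2292 UMIs, and microglia, with 33.7%. T cells held 61.7% of 1583 Ms4a4b UMIs and NK and innate lymphoid cells 18.8%, while mature B cells held 84.8% of 1400 Ms4a1 UMIs. Ms4a4a was close to the limit of detection, with 56 UMIs in all cells.

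**Figure D1:**
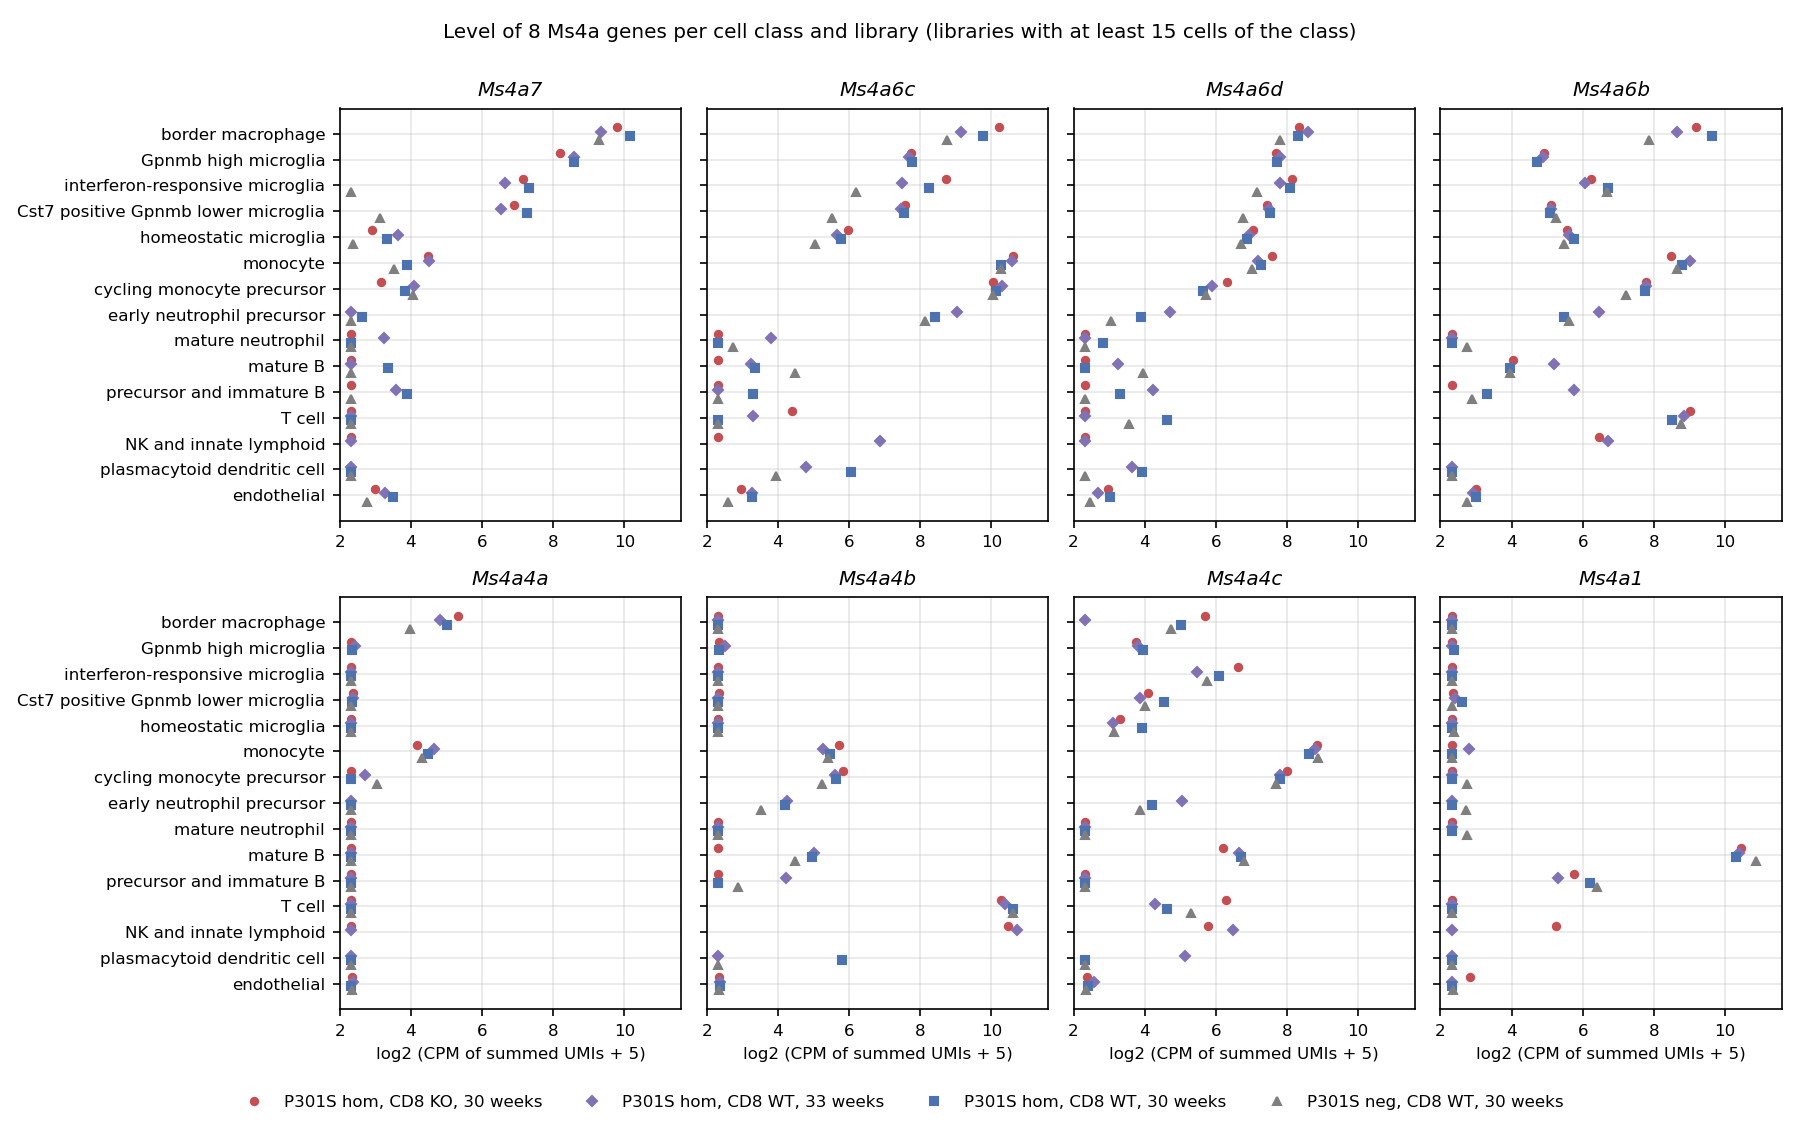
Level of each of the 8 genes, as log2 (CPM + 5), in 15 cell classes. Each point is 1 library with at least 15 cells of the class, coloured by group. Ms4a7 is highest in border macrophages and lowest among microglia in the homeostatic class, Ms4a6c is highest in monocytes, Ms4a4b is high only in T cells and NK and innate lymphoid cells, and Ms4a1 is high only in mature B cells.

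Border macrophages formed 1 cluster of 80 cells, 22 in CD8 KO, 22 in CD8 WT at 33 weeks, 16 in CD8 WT at 30 weeks and 20 in P301S neg. The cluster was named from its markers, so their levels describe it and are no separate check. Mrc1, the mannose receptor, stood at 519 to 744 CPM and Pf4 at 1401 to 1897 CPM in the 4 libraries, while the microglial gene P2ry12 stood at 0 to 54.3 CPM, against 1323 to 1716 CPM in homeostatic microglia. Gpnmb high microglia, named for a glycoprotein of lipid-laden macrophages, numbered 677 cells in CD8 KO, 525 in CD8 WT at 33 weeks, 670 in CD8 WT at 30 weeks and only 10 in P301S neg, so they are compared in the 3 P301S hom libraries. In those 3 libraries Gpnmb high microglia had 1864 to 3543 CPM of Gpnmb, no UMI of Cd163 or Lyve1 and at most 0.676 CPM of Mrc1. Pf4 was present there, at 8.45 to 14.7 CPM. Lyve1 was sparse in border macrophages too, with 12, 2 and 3 UMIs in CD8 KO, CD8 WT at 33 weeks and CD8 WT at 30 weeks. Border macrophages had no Gpnmb UMI in 3 libraries and 95.5 CPM in CD8 WT at 30 weeks.

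Ms4a7 was higher in border macrophages than in Gpnmb high microglia in each of the 3 P301S hom libraries. In CD8 KO it was 874 CPM in border macrophages (95% interval 686 to 1097) against 286 CPM in Gpnmb high microglia (275 to 298). In CD8 WT at 33 weeks it was 648 CPM (490 to 842) against 382 CPM (366 to 398), and in CD8 WT at 30 weeks 1133 CPM (902 to 1404) against 376 CPM (363 to 389). None of the 3 pairs of intervals overlapped. The ratios were 3.05 (95% interval 2.39 to 3.84), 1.70 (1.28 to 2.21) and 3.02 (2.40 to 3.75), so the library at 33 weeks had the smallest excess. In P301S neg, border macrophages stood at 619 CPM (469 to 802), below the 30-week P301S hom library but with a Gpnmb high class too small to set beside them. These border macrophage values rest on 56 to 83 UMIs of Ms4a7 in 16 to 22 cells a library.

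A UMI of Ms4a7 was found in 86.4%, 59.1%, 93.8% and 80.0% of border macrophages in CD8 KO, CD8 WT at 33 weeks, CD8 WT at 30 weeks and P301S neg. In Gpnmb high microglia the share was 58.9%, 69.3% and 71.2% in the 3 P301S hom libraries, so at 33 weeks the order of the shares was the opposite of that of the CPM. Depth differed between the classes, with a median of 3594 to 5126 UMIs per border macrophage and 11398 to 12726 UMIs per Gpnmb high cell in the P301S hom libraries. After each cell was thinned to 1000 UMIs, the share was 61.1%, 33.3% and 73.3% in border macrophages and 20.03%, 26.7% and 28.5% in Gpnmb high microglia, and border macrophages had the higher share in every one of the 3 libraries. The border macrophage shares rest on only 18, 21 and 15 thinned cells. The gap was narrowest at 33 weeks, and whether the shares differ there was not tested. In endothelial cells, which should lack the gene and had a median of 4053 to 5694 UMIs, the share was 0.555% to 1.72% unthinned and 0% to 0.397% thinned.

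The excess of border macrophages over Gpnmb high microglia depended on how the cells were taken. When cells were gated on UMIs of at least 3 of the 9 border macrophage markers, the log2 ratio turned to -0.40 in CD8 KO, -0.78 in CD8 WT at 33 weeks and -0.46 in CD8 WT at 30 weeks, against 1.61, 0.76 and 1.59 for the cluster. That gate took 52, 57 and 69 cells, of which 36, 38 and 56 were in microglia classes. These microglia had a median of 15700 to 16866 UMIs, and 25, 28 and 43 of them held Gpnmb. The gate settings also held a Gpnmb limit of 5, so the Gpnmb high side of the ratio may have changed as well. With at least 5 markers, a gate added after the data were seen, it took 12, 15 and 9 cells, all in the border macrophage cluster, and the log2 ratios were 1.15, 0.68 and 1.52.

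**Figure D2:**
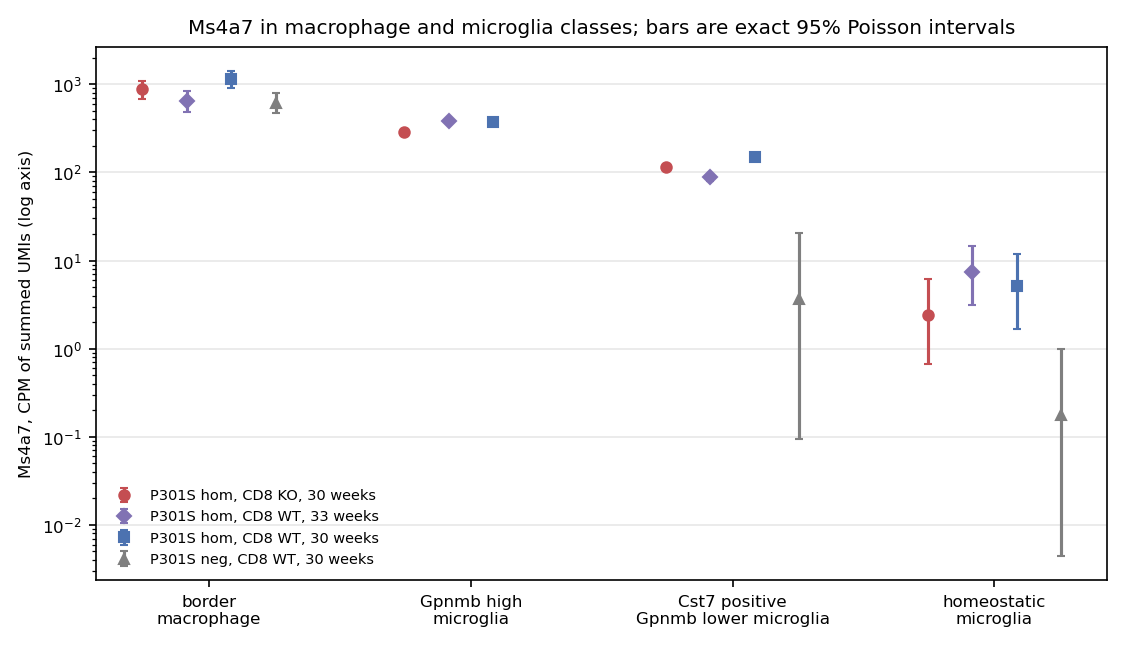
Ms4a7 CPM on a log axis in border macrophages and 3 microglia classes. Each point is the summed UMIs of 1 library with at least 15 cells of the class, coloured by group, and bars are exact 95% Poisson intervals. Border macrophages sit between 619 and 1133 CPM in all 4 libraries, Gpnmb high microglia between 286 and 382 CPM, and homeostatic microglia at or below 7.34 CPM.

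Most of the other members measured in this comparison were also higher in border macrophages. Of the 5 members with at least 20 UMIs in both classes together, 5 in CD8 KO, 4 in CD8 WT at 33 weeks and 5 in CD8 WT at 30 weeks were at least 1.5-fold higher, where 30.3%, 30.2% and 33.5% of all measured genes were; 0, 1 and 0 members were lower, where 40.3%, 38.6% and 38.8% of genes were. The median log2 ratio of the members was 2.48, 0.81 and 1.59, against -0.13, -0.06 and -0.03 over all measured genes. Ms4a6b had the widest gap, 23.0-fold (16.5 to 31.6) in CD8 KO, 16.1-fold (10.7 to 23.5) in CD8 WT at 33 weeks and 37.1-fold (27.1 to 50.04) in CD8 WT at 30 weeks. Ms4a6c was 5.69-fold, 2.80-fold and 4.10-fold higher in the same order. Ms4a6d was 1.57-fold (1.03 to 2.29), 1.76-fold (1.20 to 2.48) and 1.52-fold (0.961 to 2.29) higher in that order, and the last interval includes no difference. The member that was lower, Ms4a4c at 33 weeks, had 0 UMIs in 22 border macrophages, and its interval reaches 4.94-fold higher. Ms4a4c rested on 4 and 2 border macrophage UMIs in CD8 KO and CD8 WT at 30 weeks.

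Within microglia, Ms4a7 was found in the class high in Gpnmb and was near background in the homeostatic class. Homeostatic microglia held 4 UMIs of it in 309 cells in CD8 KO, 8 in 239 cells in CD8 WT at 33 weeks, 5 in 197 cells in CD8 WT at 30 weeks and 1 in 1207 cells in P301S neg. These shares of 1.29%, 0.837%, 1.02% and 0.0829% of cells were at or below those in endothelial cells of the same libraries, except that CD8 KO stood at 1.29% against 1.24%, and are read as background. Gpnmb high over homeostatic microglia gave a ratio of 118 (95% interval 46.0 to 433) in CD8 KO, 52.0 (26.4 to 121) in CD8 WT at 33 weeks and 73.1 (31.3 to 225) in CD8 WT at 30 weeks. Since the homeostatic levels are read as background, these ratios are no estimate of a true fold and give only its lower side. Microglia that expressed Cst7, a gene of disease-associated microglia, but less Gpnmb lay between, at 115, 87.8 and 148 CPM in the same libraries.

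The subclusters showed the same gradation over the pooled libraries. The 5 Gpnmb high subclusters had 240 to 506 CPM of Ms4a7. Of the 8 Cst7 positive subclusters, the 1 led by the MHC class II genes H2-Aa, H2-Eb1 and Cd74 had 276 CPM and the 1 led by Ms4a7 and Hcar2 had 207 CPM, and the others had 37.8 to 100 CPM. The 4 homeostatic subclusters had 0 to 20.9 CPM. Across all 19 microglia subclusters, which share libraries and clustering, log2 levels of Ms4a7 and Gpnmb had a Pearson r of 0.92 and a Spearman rho of 0.92. For Ms4a6c with Gpnmb the values were 0.74 and 0.62, for Ms4a6d 0.74 and 0.70, for Ms4a4c 0.19 and 0.24, and for Ms4a6b -0.41 and -0.39. Over 53 class and library sums, the profiles most like Ms4a7 were those of Gpnmb, Apoc4 and Igf1, each with a Pearson r of 0.92. These 3 genes were among the markers that named the Gpnmb high class. Border macrophages had too few cells to enter these sums.

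The cells of all microglia classes together were also divided by the count of Gpnmb UMIs in each cell. After thinning to 1000 UMIs, microglia with no Gpnmb UMI had 93.5, 87.1 and 135 CPM of Ms4a7 in CD8 KO, CD8 WT at 33 weeks and CD8 WT at 30 weeks. With 1 Gpnmb UMI the level was 375, 252 and 365 CPM, with 2 to 4 it was 344, 428 and 541 CPM, and with 5 or more 373, 418 and 529 CPM. Cells with any number of Gpnmb UMIs were above cells with none in each of these libraries. The bins with Gpnmb held 67 to 192 cells. In P301S neg, 1159 cells had no Gpnmb UMI, and they had no Ms4a7 UMI either. Ms4a6c had 183, 143 and 155 CPM in P301S hom cells with no Gpnmb UMI, 250, 231 and 214 CPM with 1, 144, 221 and 240 CPM with 2 to 4, and 194, 98.9 and 116 CPM with 5 or more. Ms4a6d had 187, 180 and 169 CPM with none, 250, 231 and 214 CPM with 1, 200, 255 and 253 CPM with 2 to 4, and 179, 198 and 132 CPM with 5 or more. The cells with 1 Gpnmb UMI were thus above those with none for both genes in each library, and Ms4a6d was also higher with 2 to 4. In CD8 KO that gap was small, 200 CPM (129 to 295) against 187 CPM (168 to 207). The cells with 5 or more were on both sides of those with none. For both genes, the intervals of each bin with Gpnmb overlapped those of the cells with none in each library. How these patterns differ from that of Ms4a7 was not tested.

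**Figure D3:**
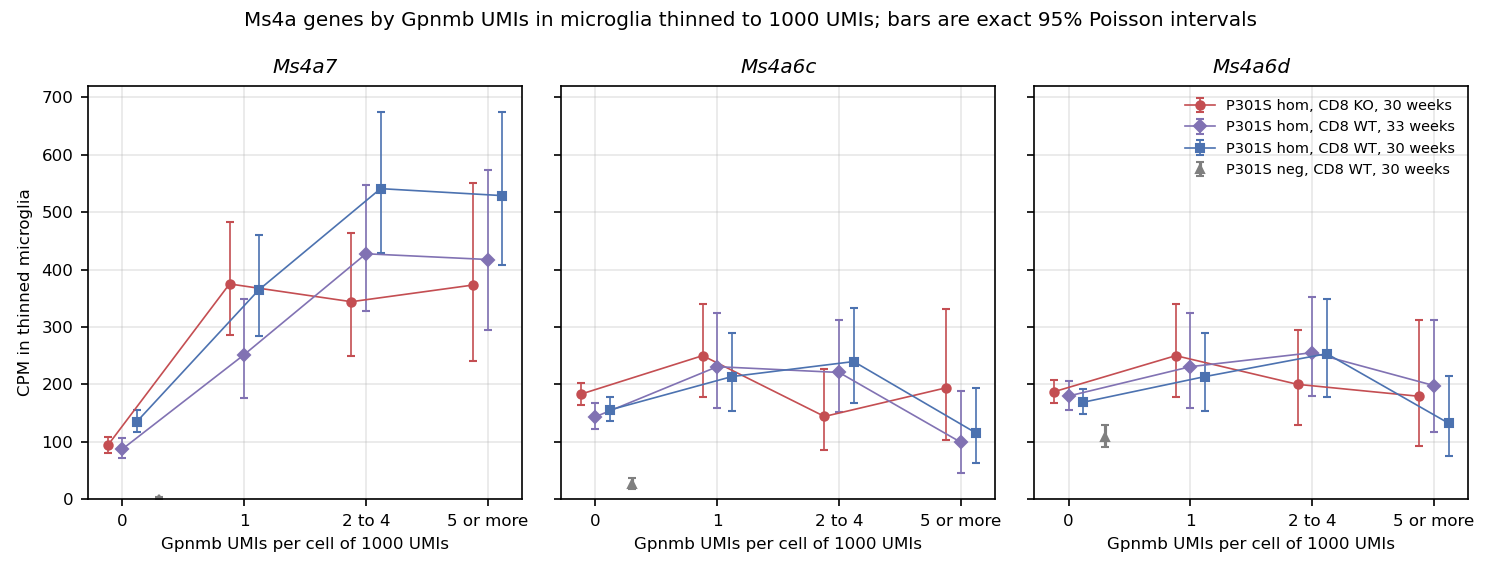
CPM of Ms4a7, Ms4a6c and Ms4a6d in microglia thinned to 1000 UMIs per cell, by the number of Gpnmb UMIs in the thinned cell. Lines join the bins of 1 P301S hom library, the grey triangle is P301S neg with no Gpnmb UMI, and bars are exact 95% Poisson intervals. Ms4a7 stands at 87.1 to 135 CPM without Gpnmb and at 344 to 541 CPM with 2 to 4 Gpnmb UMIs, while P301S neg has none.

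Ms4a6c was highest in monocytes, which had 1569, 1523, 1235 and 1242 CPM in CD8 KO, CD8 WT at 33 weeks, CD8 WT at 30 weeks and P301S neg, with a UMI in 92.2% to 96.3% of cells. Their cycling precursors had 1049 to 1250 CPM, a range that overlaps that of monocytes, and border macrophages had 1192, 567, 874 and 424 CPM. Early neutrophil precursors followed, at 519, 334 and 274 CPM in the 3 libraries with at least 15 of them, and mature neutrophils had 0 to 8.94 CPM. Among microglia, the interferon-responsive class had 418, 175, 298 and 68.2 CPM, the Gpnmb high class 210, 203 and 213 CPM in the P301S hom libraries, and the homeostatic class 57.7, 45.9, 50.4 and 28.1 CPM. The range of interferon-responsive cells, of which there were 16 to 73 a library, did not overlap that of homeostatic cells. The genes most like Ms4a6c were Tifab, Ccl9 and Ticam2, with a Pearson r of 0.90 for each.

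Ms4a6d was a gene of macrophages and microglia. Border macrophages had 319, 382, 314 and 217 CPM, interferon-responsive microglia 279, 220, 265 and 136 CPM, and Gpnmb high microglia 203, 218 and 207 CPM in the P301S hom libraries. Monocytes had 126 to 186 CPM and homeostatic microglia 100 to 128 CPM, and these ranges overlapped. A UMI of Ms4a6d was found in 33.1% of homeostatic microglia of P301S neg (9.79% thinned), against 0.444% of endothelial cells. For Ms4a6b the shares in these cells were 16.8% and 0.998%, and for Ms4a6c 10.9% and 0.610%, so these 3 members were present in microglia without the transgene. Slamf8, Ppfia4 and Fcgr1, an IgG receptor gene, had profiles most like it, each with an r of 0.93.

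Ms4a6b was shared by macrophages, monocytes and T cells and was low in microglia. It had 578, 394, 792 and 228 CPM in border macrophages, 516, 453, 358 and 431 CPM in T cells and 354, 508, 438 and 400 CPM in monocytes, and these 3 ranges overlapped. Microglia ran the other way from Ms4a7. Ms4a6b had 25.1, 24.5 and 21.4 CPM in Gpnmb high cells of the P301S hom libraries, against 42.5, 44.0 and 49.3 CPM in homeostatic cells, ratios of 0.590 (0.448 to 0.786), 0.557 (0.399 to 0.789) and 0.433 (0.314 to 0.608). Of the 5 members measured between these 2 classes, 4, 4 and 3 were at least 1.5-fold higher in Gpnmb high microglia, where 12.6%, 13.2% and 14.4% of all measured genes were. In each library 1 member, Ms4a6b, was lower, where 38.9%, 37.8% and 41.0% of genes were. Ms4a6c was 3.63-fold, 4.42-fold and 4.23-fold higher and Ms4a6d 1.59-fold, 1.84-fold and 1.85-fold higher in the same order.

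Ms4a4c and Ms4a4b, the pair with the closest sequences, fell in different cells. Ms4a4c had 458, 438, 389 and 465 CPM in monocytes and 202 to 253 CPM in their cycling precursors, 2 ranges that did not overlap, and 68.0, 95.1, 99.7 and 106 CPM in mature B cells. Ms4a4b had 1233, 1340, 1566 and 1548 CPM in T cells, with a UMI in 71.4% to 94.4% of them (57.1% to 80.0% thinned). NK and innate lymphoid cells had 1417 and 1670 CPM of Ms4a4b in CD8 KO and CD8 WT at 33 weeks, the libraries with 20 and 23 of them. In monocytes Ms4a4b was low but present, at 47.6, 34.0, 38.9 and 37.5 CPM with a UMI in 12.96% to 18.6% of cells, against at most 0.111% of endothelial cells. Monocytes had a median of 4568 to 6255 UMIs, and thinned to 1000 UMIs their share was 1.14% to 3.96%. Whether reads of Ms4a4c assigned to Ms4a4b take part in that monocyte level was not tested. T cells had 14.5 to 72.5 CPM of Ms4a4c, from 3 to 9 UMIs a library.

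T cell subclusters differed in Ms4a4b over the pooled libraries. The subclusters led by Ccl5, Cd8b1 and Nkg7 (91 cells), by Ccl5, Ly6c2 and Trbc1 (31 cells) and by Cd8b1, Trbc1 and Ms4a4b (36 cells) had 1682, 1758 and 1661 CPM, with overlapping intervals. A subcluster of 42 T cells led by haemoglobin genes and Krt83 had 177 CPM (114 to 261), and 18 cycling T precursors, all from CD8 KO, had 2 UMIs. The 5 T cells led by interferon genes had 4113 CPM (3146 to 5283) from 61 UMIs. NK and innate lymphoid cells divided into a subcluster led by Gzma with 1781 CPM and 1 led by Xcl1 with 708 CPM, and their intervals did not overlap. The profiles most like Ms4a4b were those of the NK cell receptor genes Klrk1 (r of 0.96) and Klrd1 (0.90) and of the T cell costimulator Cd28 (0.89).

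Ms4a1 was a gene of mature B cells. They had 1382, 1331, 1264 and 1864 CPM in CD8 KO, CD8 WT at 33 weeks, CD8 WT at 30 weeks and P301S neg, with a UMI in 69.2%, 80.2%, 84.4% and 88.7% of cells, and 60.5% to 78.9% thinned. At a median of 1954 to 2413 UMIs these were among the shallowest cells, and endothelial cells had a UMI in at most 0.111%. Precursor and immature B cells had 48.8, 34.7, 69.0 and 79.7 CPM, well below and with no overlap. Over the pooled libraries, 112 mature B cells led by Iglc1 and Ms4a1 itself, 60 of them from P301S neg, had 2610 CPM, and the other 2 subclusters of mature B cells had 953 and 942 CPM. Among the precursors the level was 328 CPM in a subcluster led by Iglc1, Iglc3 and Iglc2, 100 and 87.5 CPM in 2 others, 10.8 CPM in cycling cells and 0 UMIs in the 11 cells led by Igll1, Vpreb1 and Dntt, genes of the earliest B cell stages. Plasma cells had 23.1 CPM. Fcmr, the IgM receptor gene, had the profile most like that of Ms4a1, with an r of 0.99.

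**Figure D4:**
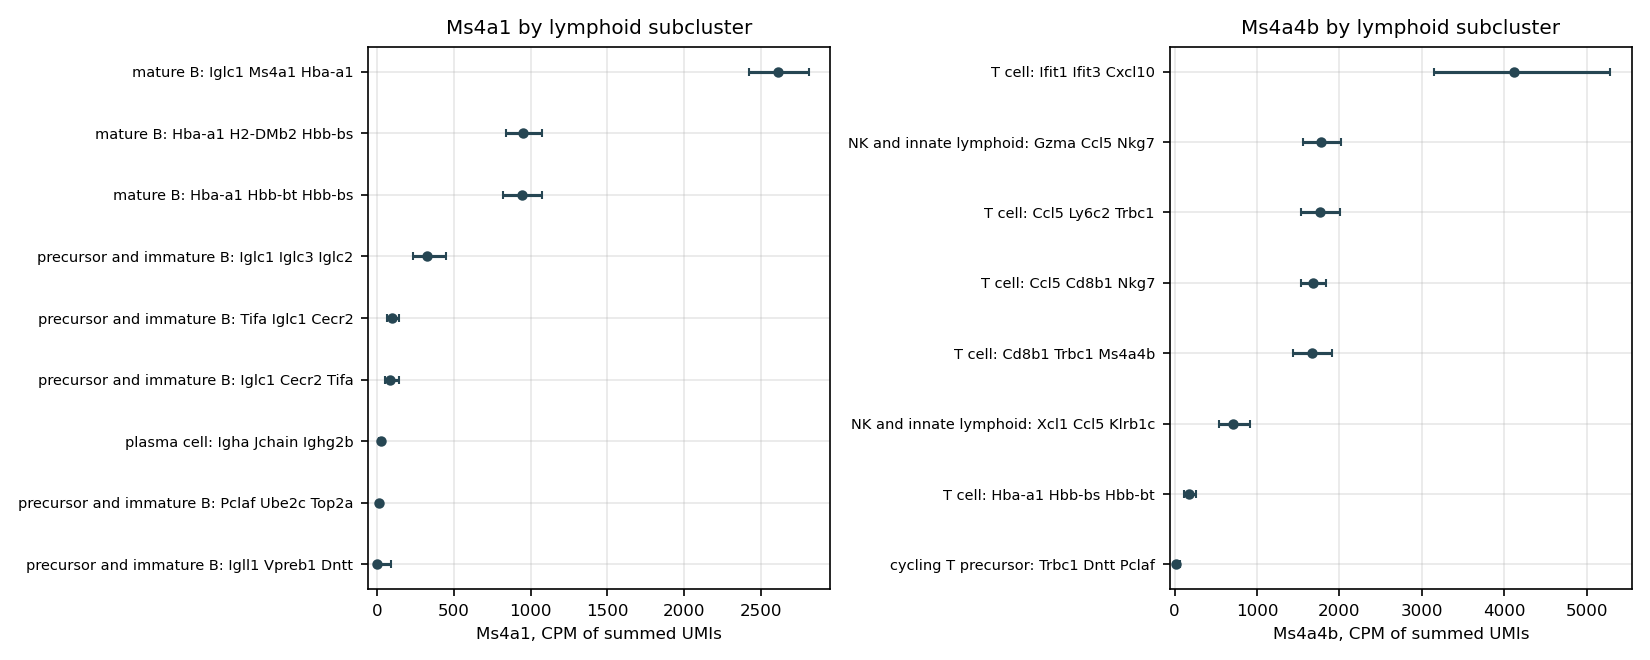
CPM of Ms4a1 in B lineage subclusters and of Ms4a4b in T and NK subclusters, summed over the 4 libraries, with each subcluster named by its class and 3 leading genes. Bars are exact 95% Poisson intervals. Ms4a1 falls off between 2610 CPM in the Iglc1-led mature B subcluster and none in the Igll1-led subcluster, and Ms4a4b ranges between 4113 CPM in 5 interferon-led T cells and 19.1 CPM in cycling T precursors.

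Ms4a4a was the sparsest member. Of its 56 UMIs, 31 were in monocytes and 8 in border macrophages. Border macrophages had 35.4, 23.2, 27.3 and 10.9 CPM from 3, 2, 2 and 1 UMIs, and monocytes 12.97, 19.99, 17.5 and 14.7 CPM from 3, 10, 9 and 9 UMIs. The 7 UMIs in 7081 microglia were as sparse as those in endothelial cells, and no order between border macrophages and monocytes can be read from these counts.

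Between the P301S hom and P301S neg libraries at 30 weeks, both CD8 WT, 4 of 5 measured members were at least 1.5-fold higher in microglia and none was lower. Over all genes, 11.9% were higher and 36.1% lower, and the median log2 ratio was 1.49 for the members and -0.37 for all genes. Microglia of the 2 libraries came from different classes: 10.3% of the 1919 cells in P301S hom were homeostatic and 34.9% Gpnmb high, against 92.8% and 0.769% of the 1301 cells in P301S neg. Ms4a7 had 4905 UMIs in P301S hom microglia and 3 UMIs in P301S neg microglia, or 236 against 0.491 CPM, a ratio of 482 (165 to 2336). With 3 UMIs on the P301S neg side the size of this ratio is uncertain, and its log2 value of 8.91 became 6.36 with the mean of per-cell CPM, 9.50 at a clustering resolution 2 times as high and 10.48 with at least 1000 UMIs per cell. The P301S neg level lay below that of endothelial cells of its own library, at 1.77 CPM. Ms4a6c stood at 191 against 30.1 CPM, 6.35-fold higher (5.47 to 7.40), Ms4a4c was 2.81-fold higher (1.96 to 4.16) and Ms4a6d 1.86-fold higher (1.71 to 2.03). Ms4a6b had a ratio of 0.680 (0.585 to 0.792), short of the 1.5-fold limit. Relative to the median of all genes, the log2 ratio of Ms4a6b was -0.19.

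Sex moved with this comparison, since the P301S hom library was female and P301S neg held both sexes, so it was repeated in female cells alone, 1752 against 540. Ms4a7 had 235 CPM in P301S hom and 0 UMIs in P301S neg, at least 230-fold higher against a floor of 3 UMIs. Ms4a6c was 5.13-fold higher (4.24 to 6.26), Ms4a4c 2.996-fold, Ms4a6d 1.84-fold, and Ms4a6b had a ratio of 0.585 (0.485 to 0.709), past the limit. Within homeostatic microglia, where 197 cells of P301S hom were set against 1207 of P301S neg, Ms4a6c was still 1.79-fold higher (1.28 to 2.49) and Ms4a4c 2.65-fold (1.12 to 5.83), while Ms4a6d had a ratio of 1.12 (0.902 to 1.37) and Ms4a6b 1.24 (0.890 to 1.70). Over all measured genes in that class, 7.31% were higher and 10.6% lower. In Cst7 positive microglia with less Gpnmb, 1002 cells of P301S hom against 62 of P301S neg, 4 of 5 measured members were higher, Ms4a4c, Ms4a6c, Ms4a6d and Ms4a7, where 21.9% of genes were higher and 28.9% lower, and the P301S neg side held 1 to 28 UMIs of each. The cells of a class were not alike in the 2 libraries. In this class P301S neg had 823 CPM of P2ry12, 382 of Cst7 and 0 of Gpnmb, and P301S hom 240, 1035 and 194 CPM. Homeostatic microglia had 24.0 CPM of Cst7 in P301S neg and 118 CPM in P301S hom. The part of such differences in the ratios within classes was not tested. In interferon-responsive microglia, 33 against 16 cells, 3 of 5 were higher, Ms4a6c, Ms4a6d and Ms4a7, where 19.0% of genes were higher and 23.3% lower. Endothelial cells of the P301S hom library also held more of these RNAs, with 6.37 against 1.77 CPM of Ms4a7 and 4.78 against 1.06 CPM of Ms4a6c, and the part of free RNA in the homeostatic values was not tested.

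Border macrophages were compared between the same 2 libraries. Of 4 measured members, 3 were at least 1.5-fold higher in P301S hom, where 17.3% of all measured genes were higher and 11.5% lower. Ms4a6b stood at 792 against 228 CPM, 3.47-fold (2.07 to 6.02), Ms4a6c at 874 against 424 CPM, 2.06-fold (1.36 to 3.15), and Ms4a7 at 1133 against 619 CPM, 1.83-fold (1.29 to 2.61). Ms4a6d had a ratio of 1.44 (0.759 to 2.77). These rest on 16 and 20 cells, a count that limits them. In monocytes no member of 5 passed the limit, where 9.07% of genes were higher and 10.9% lower, and in mature B cells no member of 2, where 6.71% were higher and 19.1% lower. Ms4a1 in mature B cells stood at 1264 against 1864 CPM, a ratio of 0.678 (0.580 to 0.792), and Ms4a4b in T cells at 1566 against 1548 CPM, a ratio of 1.01 (0.850 to 1.21). Sex moved with the comparison in these classes too. They were not divided by sex, and its part in their ratios was not tested.

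Between the library labelled CD8 KO and P301S hom CD8 WT at 30 weeks, no measured member passed the 1.5-fold limit in microglia, where 4.37% of genes were higher and 2.69% lower. The CD8 WT library at 30 weeks is also 1 side of the comparisons by transgene and by age, so the 3 are not independent. Ms4a7 came closest, at 167 against 236 CPM, a ratio of 0.706 (0.677 to 0.737), and was lower in Gpnmb high microglia too, at 286 against 376 CPM or 0.762 (0.723 to 0.805). Of the single classes, Cst7 positive microglia with less Gpnmb had 1 of 5 measured members lower, Ms4a4c, at 12.04 against 18.3 CPM, a ratio of 0.659 (0.528 to 0.821), where 3.36% of genes were higher and 2.71% lower. Cycling microglia, 27 and 17 cells, had 1 of 4 lower, Ms4a7, at 51.9 against 152 CPM, a ratio of 0.341 (0.178 to 0.630) that rests on 3 cells with a UMI in each library, where 17.2% of genes were higher and 10.5% lower. In cycling monocyte precursors 1 of 5 was higher, Ms4a6d, from 19 and 24 UMIs, a ratio of 1.69 (0.877 to 3.23) whose interval includes no difference, where 11.7% of genes were higher and 11.5% lower. In all microglia together, the log2 ratio of Ms4a7, -0.50, was below -0.40, the 5th percentile of all measured genes. Ms4a6c had a ratio of 1.002 (0.960 to 1.05) and Ms4a6d 0.964 (0.922 to 1.01). The first library is nearly all male and the second all female, so sex and genotype cannot be told apart in this pair. Male cells could be set only against the 33-week CD8 WT library, 1602 against 601 cells, where Ms4a7 was 172 against 203 CPM, a ratio of 0.846 (0.793 to 0.904). In border macrophages no member of 4 passed the limit, where 13.1% of genes were higher and 13.2% lower, and Ms4a7 had a ratio of 0.771 (0.556 to 1.07). In T cells Ms4a4b stood at 1233 against 1566 CPM, a ratio of 0.787 (0.645 to 0.958), in 45 and 54 cells. Those T cells differed in make-up, with 24.2 against 452 CPM of Cd8b1, and the part of this in the Ms4a4b ratio was not tested. The Cd8b1 value in CD8 KO lies at the floor and comes from 3 UMIs in 1 cell.

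Between 33 and 30 weeks, both P301S hom CD8 WT, no measured member was higher in microglia and 1 of 5 was lower, where 3.14% of genes were higher and 3.18% lower. The lower member was Ms4a4c, at 9.13 against 15.2 CPM, a ratio of 0.602 (0.486 to 0.741). Ms4a7 had a ratio of 0.861 (0.822 to 0.902) in all microglia, which divided by class: 1.02 (0.962 to 1.07) in Gpnmb high microglia and 0.595 (0.540 to 0.655) in Cst7 positive microglia with less Gpnmb. In that last class 2 of 5 members were lower, Ms4a7 and Ms4a4c, where 3.57% of genes were lower and 3.12% higher. Interferon-responsive microglia, 18 and 33 cells, had 4 of 5 lower, where 19.5% of genes were lower and 10.8% higher. There Ms4a6c had a ratio of 0.586 (0.377 to 0.892), and Ms4a4c, Ms4a6b and Ms4a7 had ratios of 0.617 to 0.622 with intervals that include no difference. In cycling microglia, 17 cells each, 1 of 4 was lower, Ms4a7, from 6 and 33 UMIs, a ratio of 0.139 (0.0476 to 0.336) that again rests on 3 cells with a UMI in each library, where 12.7% of genes were lower and 14.5% higher. Early neutrophil precursors, 30 and 45 cells, went the other way, with 4 of 4 measured members higher, where 14.9% of genes were higher and 8.47% lower. Ms4a6c stood at 519 against 334 CPM, 1.55-fold (1.31 to 1.84), Ms4a6b at 82.9 against 39.0 CPM, 2.12-fold (1.33 to 3.44), and Ms4a4c and Ms4a6d were 2.10-fold and 2.17-fold higher with intervals that include no difference. In border macrophages 3 of 4 measured members were lower, where 16.5% of genes were lower and 9.81% higher. Ms4a6b had a ratio of 0.497 (0.316 to 0.772), Ms4a7 0.572 (0.400 to 0.813) and Ms4a6c 0.650 (0.438 to 0.957). The older library held both sexes and the younger only female cells, so the microglia were also compared in female cells alone, 599 at 33 weeks against 1752 at 30 weeks, a match chosen after the data were seen. Ms4a4c was again the 1 member past the limit, at 8.63 against 15.3 CPM, a ratio of 0.563 (0.405 to 0.768), and Ms4a7 had a ratio of 0.867 (0.811 to 0.926). Ms4a6c had a ratio of 0.794 (0.736 to 0.856) in female cells. The border macrophages, 22 and 16 cells, were not divided by sex, and its part in their ratios was not tested.

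**Figure D5:**
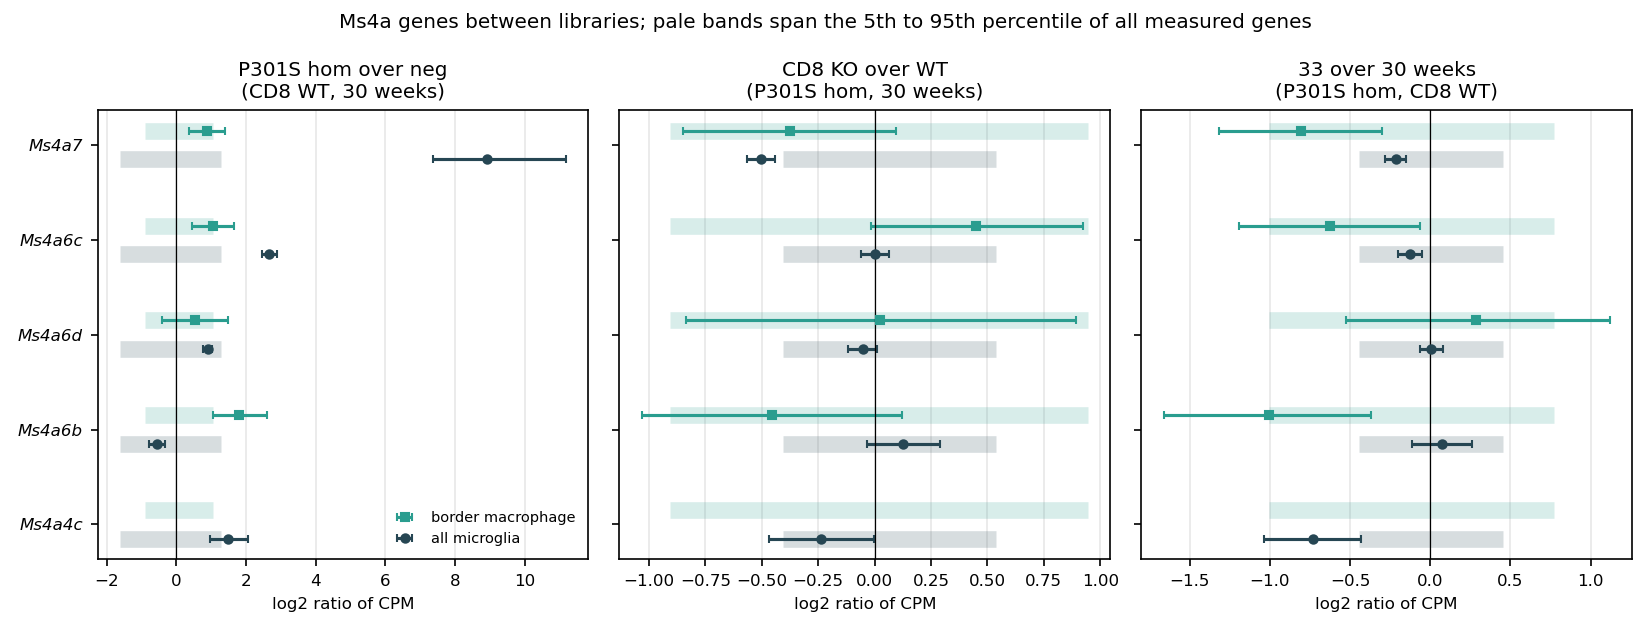
Log2 ratio of CPM of 5 members between libraries in border macrophages (squares) and all microglia (circles), with exact 95% intervals; each panel has its own scale. Pale bands span the 5th to the 95th percentile of all measured genes of the class. Right of the band between P301S hom and neg lie Ms4a7, Ms4a6c and Ms4a4c in microglia and Ms4a6b in border macrophages; left of it lie Ms4a7 in microglia between CD8 KO and WT, and Ms4a4c in microglia and Ms4a6b in border macrophages between 33 and 30 weeks.

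Genes listed as partners of the family were counted beside it in the P301S hom and P301S neg microglia at 30 weeks. Whether each of their proteins works with the family was not examined. Of 7 measured myeloid partners, with a median log2 ratio of 0.54 against -0.37 over all genes, 2 were at least 1.5-fold higher, where 11.9% of genes were, Tyrobp (2.24-fold), the signalling adaptor of Trem2, and Fcer1g (1.56-fold), the shared Fc receptor chain. A further 2 were lower, where 36.1% of genes were, Cd33 (a ratio of 0.53), an inhibitory sialic acid receptor, and Adam10 (0.62), a protease that sheds Trem2. Trem2 itself had a ratio of 1.46 and Grn, which encodes progranulin, 1.47. The list of lymphoid partners had 5 of 8 genes measured in microglia and a median of -0.42, with Cd22 higher (5.73-fold) and Cd79b lower (0.27).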

How the data were processed

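Cells of the spinal cord were measured by droplet 3′ single-cell RNA sequencing in 4 libraries, 1 per group. The deposited values are UMI counts per gene and barcode, which the authors made with Cell Ranger 6.0.1 per the file headers; mm10 is the genome per the submitters' processing notes, and the annotation version is not given in the sources used here. The barcodes are those of the deposited filtered matrices, and no other columns of values were present.

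A barcode was kept if it had 500 or more UMIs, 200 or more genes and a mitochondrial share no higher than 15%. Doublets called with scrublet in scanpy 1.11.5 (expected rate 6%) were removed, 69, 42, 59 and 98 cells in CD8 KO, CD8 WT at 33 weeks, CD8 WT at 30 weeks and P301S neg. Leiden clustering (igraph 0.11.9) used 2000 variable genes, 30 components and 15 neighbours at resolution 1.0, then a second round within lymphoid, myeloid and granulocyte cells. Clusters were named from marker lists; the thresholds on marker scores that separate microglia classes were set with the data in view, so the names are rebuilt ones. Sums and intervals were computed with pandas 2.3.3, scipy 1.17.1 and numpy 2.4.6 in Python 3.11.15.

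UMIs were summed per class and library and scaled to CPM. Intervals are exact Poisson for CPM, exact Clopper-Pearson for shares and exact conditional binomial for ratios, at 95%, for counting error only; UMIs of 1 cell and cells of 1 mouse are not independent, so the intervals are too narrow for mice. A gene counted as measured with at least 20 UMIs in both sides together and as higher or lower at 1.5-fold. A count of 0 stayed 0 in levels and ratios. A floor of 3 UMIs was used only for detection limits and for bounds on a ratio. Shares were also given after thinning each cell to 1000 UMIs, which leaves shallower cells out. Class orders use libraries with at least 15 cells of a class. With 1 library per group no test was possible. Female and male cells were told apart by sex-linked UMIs only to match cells between libraries.

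The named genes are the 8 members, 13 of 14 other Ms4a genes and relatives, 7 of 8 myeloid and 8 of 8 lymphoid partners, and for each member the 3 genes with the highest Pearson correlation of log2(CPM + 5) over 53 class and library sums of at least 30 cells, among genes with at least 200 UMIs. Border macrophages had too few cells for these sums. The members and lists were chosen with earlier results of these data known. The calls were tested on simulated data. Alternatives were the UMI minimum, keeping doublets, the clustering resolution, gates on marker UMIs, thinning, the mean of per-cell CPM, scaling to the median gene, cells of 1 sex and a lower gene minimum. Sequences are from RefSeq (GRCm38.p6), and positions are from GENCODE M21, whose gene identifiers match those of the files.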

Additional observations from a re-analysis of the deposited data

How the results depend on the processing

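The excess of Ms4a7 in border macrophages over Gpnmb high microglia kept its direction in each P301S hom library under each alternative run on it (the UMI minimum, doublets kept, the clustering resolution, thinning, the mean of per-cell CPM and the gate on at least 5 markers) except the gate on at least 3 border macrophage markers. There the log2 ratio was -0.40, -0.78 and -0.46 in CD8 KO, CD8 WT at 33 weeks and CD8 WT at 30 weeks, against 1.61, 0.76 and 1.59 in the clusters, and 36 of 52, 38 of 57 and 56 of 69 gated cells were in microglia classes. In CD8 KO the log2 ratio was 1.15 with the gate on at least 5 markers, chosen after seeing the data, and 2.07 when each cell was thinned to 1000 UMIs. The count of 4 members higher in P301S hom over P301S neg microglia was within 1.5 times under each alternative. With female cells alone, 1 member was lower in that comparison, Ms4a6b, where none was before. With at least 5 UMIs per gene in place of 20, 1 member was lower in CD8 KO over CD8 WT, and 2 were higher and 2 lower at 33 over 30 weeks; the cause is the sparse members that enter. The class of highest share was the same for 4 of 8 members after thinning to 1000 UMIs. Of the values of these comparisons under the alternatives, 57 stayed on the same side and within the spread, 7 moved and 3 reversed. Of those of single members, 91 stayed within the spread and 13 moved, and some of both kinds changed sign. In cells of 1 sex, Ms4a4c went from a log2 ratio of -0.24 to 0.38 in CD8 KO over CD8 WT. Male cells there were set against the 33-week CD8 WT library. At 33 over 30 weeks, Ms4a6b went from 0.07 to -0.15 and Ms4a6d from 0.007 to -0.11. Ms4a6c in CD8 KO over CD8 WT, at 0.003, became -0.02 with the mean of per-cell CPM. No paired analysis was possible because each group is 1 library and the labels give no replicate numbers. Depth limits Ms4a4a, with 56 UMIs in all, and Ms4a7 in homeostatic microglia, with 18 UMIs. The number of border macrophages, 16 to 22 a library, limits every value from them.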

Other observations

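Other genes of the family were found in further cell types. Ms4a2, the beta chain of the high-affinity IgE receptor, had 1199, 1023, 891 and 882 CPM in basophils of CD8 KO, CD8 WT at 33 weeks, CD8 WT at 30 weeks and P301S neg, in 3, 11, 9 and 9 cells that all had a UMI of it. Ms4a3, known from granulocyte and monocyte progenitors, had 854, 1012 and 1097 CPM in the early neutrophil precursors of CD8 WT at 33 weeks, CD8 WT at 30 weeks and P301S neg. It had 73.5 to 108 CPM in intermediate neutrophils of the 4 libraries, the next stage by markers. Ms4a8a was a monocyte gene, with 138, 122, 115 and 86.5 CPM in the 4 libraries and a UMI in 33.3% to 44.7% of cells.

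Ms4a14 was sparse and, like Ms4a7, was found in Gpnmb high microglia, though not only there. Gpnmb high microglia had 2.74, 4.23 and 3.12 CPM of it in CD8 KO, CD8 WT at 33 weeks and CD8 WT at 30 weeks, from 22, 25 and 27 UMIs. All microglia of P301S hom CD8 WT at 30 weeks had 2.12 CPM from 44 UMIs, of which 27 were in the Gpnmb high class. P301S neg microglia had 0 UMIs.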
